A study of Rattus norvegicus with 6 samples.

Results

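The genes described are 4 of the NF-kB transcription factor subunits (Nfkb1, Nfkb2, Rela and Relb) and 6 genes that act on them and are known as their targets (Nfkbia, Nfkbiz, Bcl3, Tnfaip3, Tnip1 and Birc3). They were chosen by name, by a rule that uses no measured value but with earlier results of these data known, and all 10 were found among the 17388 genes of the full tables and the 15108 genes that every table holds. They were followed in single nuclei of colon from 9 male Wistar rats, read as 3 per treatment. Sham rats had drinking water only. Placebo and PL8177 rats both drank 5% dextran sulfate sodium (DSS), a chemical that injures the colon epithelium, for 3 days, and were then given capsules 2 times a day for 4 days (day 4 to day 7), without drug or with 50 µg of PL8177, an agonist of the melanocortin receptor MC1R. The DSS injury was therefore shared by placebo and PL8177 rats, and sham rats differed from both in DSS and, as far as the labels say, in the capsules at once. Nuclei were assigned to T cells or to enterocytes, the absorptive cells of the colon surface, by the authors.

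NF-kB is a family of dimeric transcription factors that switch on genes of inflammation, survival and barrier defence in response to TNF, interleukin 1 and microbial products. In resting cells the dimers are held in the cytoplasm by inhibitor (IkB) proteins, which are destroyed when upstream kinases are activated. Many targets of NF-kB are its own brakes, so that transcripts of the inhibitors and of the ubiquitin-editing proteins serve in many cells as a readout of recent NF-kB activity. In colon epithelium the pathway is known both for protecting the barrier and for driving the release of chemokines.

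The DNA elements through which NF-kB acts, the κB sites, were looked for in the windows around the gene starts in RefSeq (rat build GRCr8, from 250 bases before to 50 bases after the start). The counts themselves were made on another build, Rnor 6.0, so these positions belong to GRCr8 alone. Windows for 8 of the 10 genes were found, and those for Relb and Birc3 were not. The κB consensus of 10 bases, searched on both strands, was present in 7 of the 8 windows (Nfkb1, Nfkb2, Bcl3, Nfkbia, Nfkbiz, Tnfaip3 and Tnip1) and was not found in that of Rela. Of all 33469 windows 4.18% held a match, as did 4.99% of the 7932 windows of genes tested in enterocytes and 22 of the 80 windows (27.5%) of the wider list of NF-kB pathway genes used below. A match is a description of the letters and not evidence of binding. The sequences of Nfkbia and Nfkbiz, of which the enterocyte levels of PL8177 rats all lay above those of placebo rats (below), are shown first, as the 250 bases before the start, 5′ to 3′ on the strand of the gene and with the consensus match in capitals.
Nfkbia, chr6:78597073-78597322, minus strand: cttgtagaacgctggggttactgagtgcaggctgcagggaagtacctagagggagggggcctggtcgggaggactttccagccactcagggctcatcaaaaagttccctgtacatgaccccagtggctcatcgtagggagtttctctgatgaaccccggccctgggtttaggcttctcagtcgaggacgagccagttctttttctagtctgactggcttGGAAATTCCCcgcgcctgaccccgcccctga
Nfkbiz, chr11:58251471-58251720, plus strand: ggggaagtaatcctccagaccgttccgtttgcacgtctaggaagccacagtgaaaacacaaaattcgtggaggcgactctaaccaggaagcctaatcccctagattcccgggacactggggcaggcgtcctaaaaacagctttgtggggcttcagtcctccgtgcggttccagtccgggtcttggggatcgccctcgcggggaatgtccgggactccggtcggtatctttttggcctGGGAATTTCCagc
In Nfkbia, which encodes the inhibitor IkBα, the match lay on the opposite strand and began 31 bases before the start, and in Nfkbiz, which encodes the nuclear protein IkBζ, it lay on the gene strand and began 13 bases before the start.

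The other 5 genes with a match are shown as stretches of 60 bases around it, to let the sites be compared, again with the match in capitals.
Nfkb1, chr2:226805448-226805507, minus strand: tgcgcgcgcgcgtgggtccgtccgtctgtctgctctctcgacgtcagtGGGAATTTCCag
Nfkb2, chr1:255108314-255108373, plus strand: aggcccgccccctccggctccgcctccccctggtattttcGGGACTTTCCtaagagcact
Bcl3, chr1:88613559-88613618, minus strand: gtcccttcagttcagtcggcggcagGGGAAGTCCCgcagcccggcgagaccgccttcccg
Tnfaip3, chr1:15544006-15544065, minus strand: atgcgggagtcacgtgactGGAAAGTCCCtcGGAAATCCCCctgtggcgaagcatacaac
Tnip1, chr10:39585012-39585071, minus strand: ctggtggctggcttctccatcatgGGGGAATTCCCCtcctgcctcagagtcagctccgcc
In Nfkb1 the match began 3 bases after the first base of the gene, and in Nfkb2 20 and in Bcl3 38 bases before the start. Tnfaip3 held 3 matches, beginning 170, 67 and 55 bases before the start, of which the latter pair is within the stretch shown. In Tnip1 4 matches overlapped one another on both strands, within a single palindromic stretch that began 86 bases before the start.

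**Figure D1:**
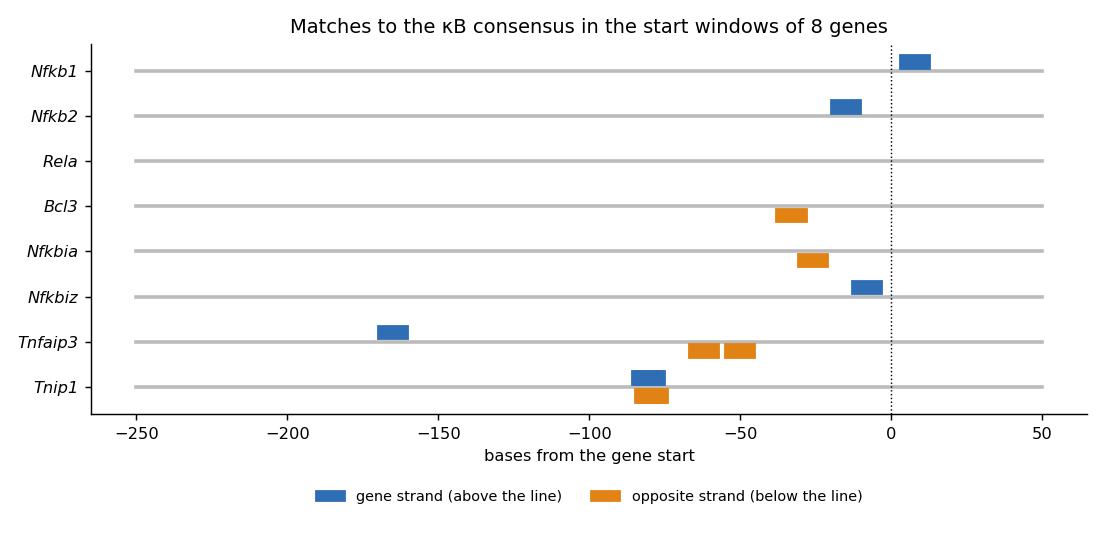
Positions of the matches to the κB consensus in the start windows of 8 genes, with bases from the gene start on the x axis and 1 line per gene. Blue blocks above a line are matches on the gene strand and orange blocks below it matches on the opposite strand; in 6 of the 7 genes with a match at least 1 began within 90 bases before the start, and in Nfkb1 it began 3 bases after it.

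The levels below are counts of captured RNA molecules (unique molecular identifiers, UMIs) of a gene per 10000 UMIs of the same rat and cell type, over the 15108 genes that all tables hold. Unlike the fits, the levels were not scaled further between rats, nor were the shares of all genes set beside them. The tables held 8782 enterocyte and 1018 T cell nuclei. Totals per rat ran from 310927 to 3995627 UMIs in enterocytes and from 8070 (sham rat GR13) to 779009 (placebo rat GR23) in T cells, and the median nucleus of a rat held 425 to 2283 UMIs in enterocytes and 364 to 2091 in T cells. Among 9800 nuclei, 10 barcodes occurred in more than 1 rat. In enterocytes, markers of their own type took up 161 to 398 of 10000 UMIs and markers of T cells 0.148 to 0.868. For T cells the ranges in 8 rats were 24.5 to 58.2 (T cell markers) and 21.7 to 84.1 (enterocyte markers). The T cell nuclei of placebo rat GR23 stood apart from their label, with 2.07 of T cell markers and 212 of enterocyte markers per 10000, and in 24 of its 685 nuclei alone were there T cell marker UMIs that were not outnumbered by those of enterocyte markers. The main results for T cells are therefore also given without GR23, where both cell types of that rat were left out of the fit.

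In enterocytes the gene of the 10 with the clearest order of levels between treatments was Nfkbia. Its level was 0.869, 0.983 and 0.746 UMIs per 10000 in the sham rats (GR12, GR13, GR15), 1.03, 1.29 and 1.37 in the placebo rats (GR22, GR23, GR24) and 1.42, 1.41 and 1.76 in the PL8177 rats (GR41, GR43, GR44). Every placebo rat was above every sham rat and every PL8177 rat above every placebo rat. The levels of the 3 treatments thus did not overlap. These levels do not carry the TMM scaling factors of the fit, which were 0.888 for GR13 and 1.07 for GR22. That scaling raises GR13 (0.983) and lowers GR22 (1.03), so that sham and placebo rats overlap after it. The nearest placebo and PL8177 rats were also close (1.37 and 1.41). No share of all genes was computed for the order of all 3 treatments. The means were 0.866 ± 0.119, 1.23 ± 0.178 and 1.53 ± 0.200 (SD, n = 3), on 36 to 563 UMIs per rat. In the fit over all genes the change from sham to PL8177 was 0.82 on the log2 scale (SE 0.246), with an unadjusted p of 0.00569 and an adjusted p of 0.733 (edgeR), so that it did not pass the test. The step from placebo to PL8177 was 0.48 (SE 0.240) with an adjusted p of 0.576, and that from sham to placebo 0.34 (SE 0.249) with an adjusted p of 0.588. Over all genes with at least 50 UMIs, 15.3% had every placebo rat above every sham rat, 4.56% every PL8177 rat above every placebo rat and 6.41% every PL8177 rat above every sham rat, against 1, 2 and 2 of the 10 NF-kB genes. The reverse order of placebo and sham rats was found for none of the 10 and for 5.04% of all genes, and that of PL8177 and placebo rats for none and for 14.3%. With every nucleus thinned to 300 UMIs, the mean level of Nfkbia was 0.801 after sham, 1.32 after placebo and 1.77 after PL8177 treatment.

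Nfkbiz, whose product IkBζ works in the nucleus as a co-activator of a subset of NF-kB targets, took another course. Sham rats stood at 2.57, 2.01 and 1.64 UMIs per 10000, placebo rats at 0.846, 1.29 and 1.73 and PL8177 rats at 2.20, 1.75 and 1.92, in the same order of rats as above. All 3 PL8177 rats were above all 3 placebo rats, though the nearest of them were close (1.73 in GR24 against 1.75 in GR43). Placebo rat GR24 overlapped with the lowest sham rat. The fitted change was -0.86 on the log2 scale from sham to placebo (SE 0.289, unadjusted p = 0.0112, adjusted p = 0.269 by edgeR) and 0.77 from placebo to PL8177 (SE 0.286, unadjusted p = 0.0191, adjusted p = 0.454), and neither passed the test. PL8177 and sham rats differed by -0.09 (SE 0.283). With nuclei thinned to 300 UMIs the change from placebo to PL8177 was 0.43, so that it moved by over 1.5 times.

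Bcl3, a further nuclear member of the IkB family that binds p50 and p52 dimers, stood at 1.09, 1.55 and 1.57 UMIs per 10000 in sham rats. Placebo rats stood at 0.668, 1.32 and 0.783 and PL8177 rats at 1.48, 0.954 and 0.551. One placebo rat (GR23) and 1 PL8177 rat (GR41) lay within the range of sham rats and the others below it. The fitted change from sham to placebo was -0.83 on the log2 scale (SE 0.356, adjusted p = 0.382 by edgeR). It was -0.35 in nuclei with at least 500 genes and -1.76 in nuclei thinned to 300 UMIs, so that its size depended on which nuclei and how many of their UMIs were counted.

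Of the subunits, Relb, the DNA-binding partner of the p52 protein in the non-canonical branch of the pathway, had its highest levels in sham rats GR12 and GR15. Its level was 0.605, 0.480 and 0.787 UMIs per 10000 in sham rats, 0.479, 0.482 and 0.351 in placebo rats and 0.478, 0.378 and 0.470 in PL8177 rats. All PL8177 rats were below all sham rats, an order found for 1 of the 10 genes and for 5.01% of all genes with at least 50 UMIs, but the gap between the nearest rats was small (0.480 against 0.478), and placebo rat GR23 overlapped with sham rat GR13. The fitted changes were -0.67 from sham to placebo (SE 0.267, adjusted p = 0.340 by edgeR) and -0.49 from sham to PL8177 (SE 0.262, adjusted p = 0.768). Placebo and PL8177 rats overlapped, with a change of 0.18 (SE 0.262).

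Nfkb1, which encodes p105 and its product p50, stood at 0.947, 0.800 and 0.725 UMIs per 10000 in sham rats, 1.03, 0.933 and 1.01 in placebo rats and 1.04, 0.908 and 1.03 in PL8177 rats. Sham rat GR12 overlapped with both other treatments, and the largest of the 3 fitted changes was 0.26 from sham to PL8177 (SE 0.221). Rela, which encodes p65, the main activating subunit, had 308 UMIs in all enterocyte nuclei. Its levels were 0.171, 0.114 and 0.0414 in sham rats, 0.264, 0.193 and 0.0994 in placebo rats and 0.138, 0.213 and 0.202 in PL8177 rats, and the treatments overlapped. Nfkb2, which encodes p100 and p52, had 122 UMIs and ranged from 0.0457 to 0.117 over the 9 rats. Fitted changes of Rela and Nfkb2 lay between -0.22 and 0.61 on the log2 scale, with SEs of 0.447 to 0.502, so that changes of that size were not detectable at this depth.

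Among the ubiquitin-acting proteins, Tnip1 encodes an adaptor that binds linear ubiquitin chains and works with the protein of Tnfaip3. Its level was 2.31, 1.74 and 1.99 UMIs per 10000 in sham rats, 3.01, 1.70 and 3.19 in placebo rats and 2.38, 3.62 and 3.44 in PL8177 rats. Every PL8177 rat was above every sham rat, while placebo rat GR23 lay below all sham rats. The change from sham to PL8177 was 0.65 on the log2 scale (SE 0.277, unadjusted p = 0.0362, adjusted p = 0.747 by edgeR) and did not pass the test. In nuclei with at least 500 genes it was 0.40.

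Birc3 encodes cIAP2, a ubiquitin ligase of the TNF receptor complex. It stood at 4.64, 4.59 and 5.22 UMIs per 10000 in sham rats, 4.62, 7.59 and 8.10 in placebo rats and 4.92, 5.37 and 6.56 in PL8177 rats. Placebo rats GR23 and GR24 were above all other rats, and the third placebo rat was level with sham. None of its fitted changes exceeded 0.32 (SE 0.254, sham to placebo), and this change was -0.17 when nuclei were thinned to 300 UMIs. Birc3 has a close relative, Birc2, and how reads of their shared parts bear on its counts was not tested. Tnfaip3, which encodes A20, the enzyme that edits ubiquitin chains and ends NF-kB signalling, had 155 UMIs in enterocytes and ranged from 0.0207 to 0.193, with 1 UMI in sham rat GR15. Its SEs of 0.545 to 0.580 left changes of its size (-0.01 to 0.66) undetectable.

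**Figure D2:**
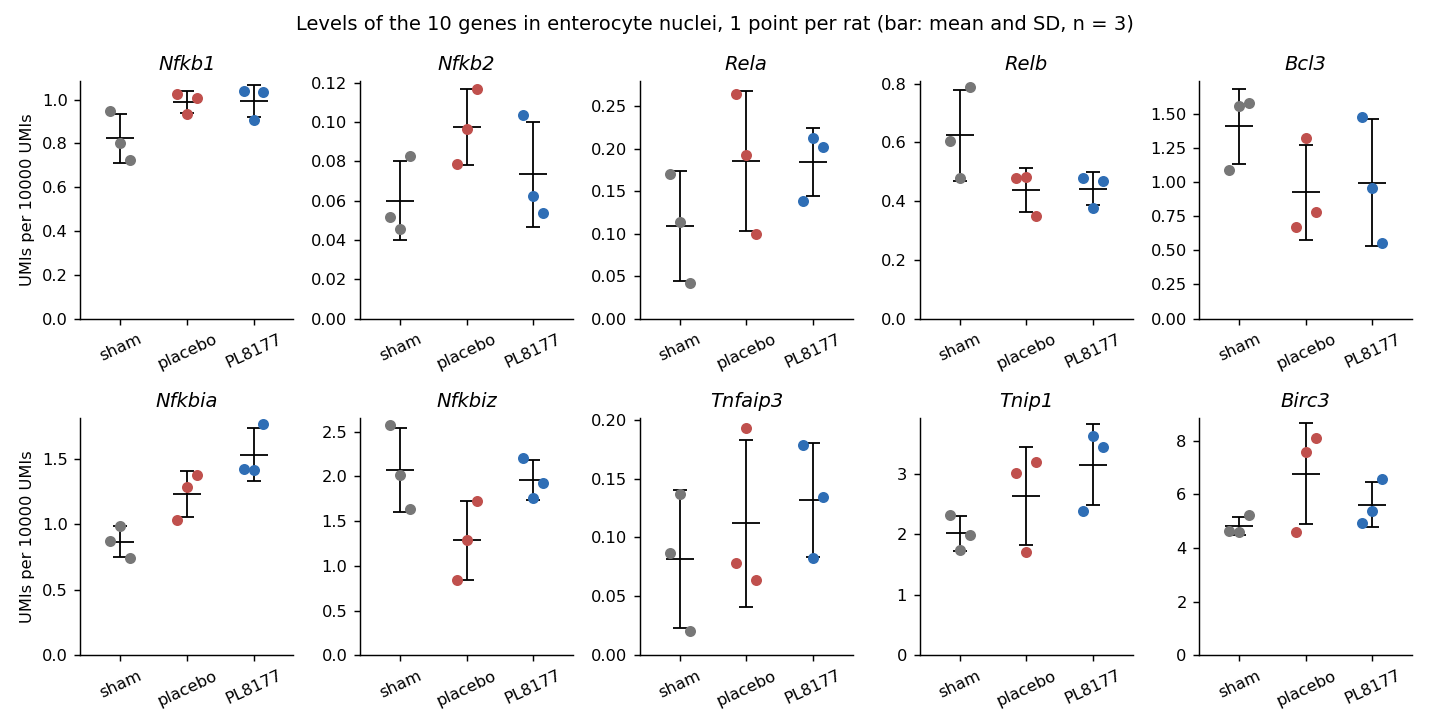
Level of each of the 10 genes in enterocyte nuclei in UMIs per 10000 UMIs (y axis, from 0) by treatment (x axis), with 1 point per rat and the mean with its SD (n = 3). The points of Nfkbia do not overlap between treatments (sham 0.746 to 0.983, placebo 1.03 to 1.37, PL8177 1.41 to 1.76). Those of Nfkbiz do not overlap between placebo (0.846 to 1.73) and PL8177 (1.75 to 2.20). The gaps between the nearest rats are small, and that of Nfkbia between sham and placebo is lost with the scaling of the fit.

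Over the 10 genes together, none passed the test in any of the 3 comparisons of enterocytes (a change of more than 0.5 on the log2 scale with an adjusted p below 0.05). Of all 9424 genes tested by edgeR, 0% were called in each comparison, although 1172, 871 and 621 genes had an unadjusted p below 0.05 from sham to placebo, from placebo to PL8177 and from sham to PL8177. Of the 10 NF-kB genes 3 (Nfkbiz, Relb and Bcl3), 1 (Nfkbiz) and 2 (Nfkbia and Tnip1) did. DESeq2 called 115, 70 and 4 of 16525 genes tested, none of them among the 10. The median log2 change of the 10 genes was 0.18, 0.26 and 0.32, beside 0.02, -0.01 and 0.03 over all genes tested, and 6, 8 and 7 of the 10 values were above 0. In nuclei thinned to 300 UMIs, where 7 of the 10 were tested, the medians were -0.17, 0.43 and 0.02. Without sham rat GR15 the first was 0.06. These medians thus depended on single rats and on the genes, nuclei and UMIs counted, and the part of depth alone was not tested. These comparisons share their groups, so their values are not independent. The summed level of T cell markers in enterocyte nuclei was 0.297 to 0.534 per 10000 (sham), 0.406 to 0.868 (placebo) and 0.148 to 0.370 (PL8177), with Cd3d at 0 in all treatments, and that of enterocyte markers was 249 to 398, 161 to 256 and 213 to 275. Their part in the values of the 10 genes was not tested.

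**Figure D3:**
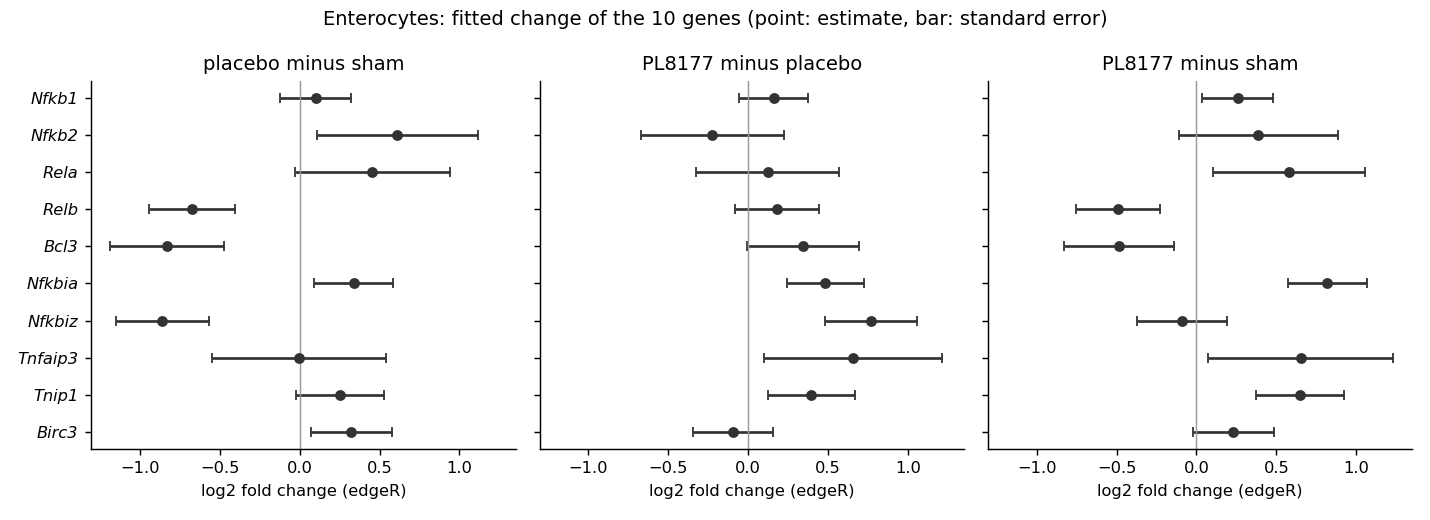
Fitted log2 fold change (x axis) of the 10 genes (y axis) in enterocytes for 3 comparisons, with the SE as a bar. Relb, Bcl3 and Nfkbiz lie to the left of 0 from sham to placebo (-0.67, -0.83 and -0.86), and Nfkbia and Nfkbiz have the highest ratio of change to SE from placebo to PL8177 (0.48 and 0.77); none passed the test.

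The wider pathway was described with a list of 87 other NF-kB genes (upstream receptors, adaptors, kinases, inhibitors, ligands and targets), of which 80 were in the tables and 57 were tested in enterocytes. None of the 57 was called by edgeR in any comparison, nor by DESeq2, while 6, 9 and 5 had an unadjusted p below 0.05 (in the order above). Their median log2 change was -0.17 from sham to placebo, 0.13 from placebo to PL8177 and 0.00 from sham to PL8177. From sham to placebo the smallest p-values belonged to Ccl20, a chemokine for lymphocytes and dendritic cells (3.02, SE 0.841, adjusted p = 0.207), to the receptors Tnfrsf11a (0.63) and Tlr4 (0.60), and downwards to the cytokine Il18 (-0.79), the TNF receptor Tnfrsf1a (-1.22) and its adaptor Tradd (-0.88). Ccl20 stood at 0 to 0.0418 UMIs per 10000 in sham rats, 0.118 to 0.482 in placebo rats and 0.0461 to 0.309 in PL8177 rats, and it was called when genes with low counts were kept in the fit.

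From placebo to PL8177 the smallest p-values of the list were those of Tnfrsf1a (1.38, SE 0.413, adjusted p = 0.363), of Bcl2l1, which encodes the survival protein Bcl-xL (0.98), and of Zc3h12a, an RNase that degrades inflammatory mRNAs (0.87). Downwards they were those of the kinase gene Ikbke (-0.98), Tnfrsf11a (-0.70) and the interleukin 1 receptor gene Il1r1 (-1.60). Tnfrsf1a stood at 0.373 to 0.503 UMIs per 10000 after sham, 0.0965 to 0.330 after placebo and 0.425 to 0.519 after PL8177 treatment. Its placebo levels thus lay below those of both other treatments, but rested on 126 UMIs in GR22, 3 in GR23 and 17 in GR24. Of all genes with at least 50 UMIs, 5.04% had placebo levels wholly below those of sham rats. For 4.56% the PL8177 levels lay wholly above the placebo levels. No share was computed for both orders at once, and Tnfrsf1a was picked by its p-value. From sham to PL8177 the smallest p-values were those of Ccl20 (2.50), Gadd45b (1.44) and Bcl2l1 (0.49) upwards and Tnip2 (-0.97), Plaur (-0.86) and Myd88 (-0.60) downwards, with adjusted p-values of 0.733 to 0.786 (edgeR).

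The 10 genes did not vary as a block across the 9 enterocyte sums. The 45 pairs had a median Pearson r of 0.07 on the log2 scale, 25 of them were above 0, and r ran from 0.78 (Nfkb1 and Nfkbia) to -0.70 (Bcl3 and Tnip1). These values are descriptions over 9 rats that share treatment and depth. Among 9301 genes with at least 50 UMIs, the most alike were Synpo for Nfkbia (r = 0.96), Map3k14 for Nfkbiz (0.93), Prr15 for Tnip1 (0.98), Erlin2 for Birc3 (0.96), Pigu for Nfkb1 (0.93), Osbpl7 for Relb (0.90) and Fam118b for Bcl3 (0.94). For the genes with few UMIs they were Bcl2l15 for Rela (0.94), Fastkd3 for Nfkb2 (0.93) and Trafd1 for Tnfaip3 (0.94). Map3k14 encodes NIK, the kinase that starts the non-canonical branch.

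T cells and enterocytes of the same rat were then compared, to see how the 10 genes differ between a lymphocyte and an epithelial cell. Of 7 genes with enough UMIs to be tested, Nfkb1 was higher in T cells and Birc3 and Tnip1 were lower (the same thresholds, edgeR with a term for each rat). Of all 5194 genes tested 13.3% were called higher and 20.7% lower in T cells, beside 1 and 2 of the 7. DESeq2 called the same number of the 10 genes (3). It tested more genes, and called 2099 of 14987 higher and 1199 lower, against 693 and 1076 of 5194 in edgeR. The median log2 change over all genes tested was 0.83 in DESeq2 and -0.08 in edgeR, so the 2 sets of counts are not of like genes or scaling.

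Nfkb1 stood in T cells at 3.75, 1.24 and 1.91 UMIs per 10000 in sham rats, 1.49, 1.31 and 2.11 in placebo rats and 8.32, 0.828 and 1.47 in PL8177 rats, beside 0.725 to 1.04 in enterocytes. It was higher in the T cells of 8 of 9 rats, the exception being PL8177 rat GR43. Of these 8, sham rat GR13 rested on 1 UMI and PL8177 rat GR44 on 3 UMIs in T cells. No share of all genes was computed for this count of rats or for those given below. The difference was 0.98 on the log2 scale (SE 0.302, 1.97-fold, adjusted p = 0.0145). The highest rat, GR41, rested on 20 UMIs, 8 of them in 1 nucleus. Without GR41 the difference was 0.71 (adjusted p = 0.0725) and without sham rat GR12, which held 88 of the 248 Nfkb1 UMIs in T cells, 0.81 (adjusted p = 0.0804), so that the call depended on either rat. Without GR23 it was 1.10 and called. It was also lost with low-count genes kept (0.43, adjusted p = 0.393) and in thinned nuclei (1.10, adjusted p = 0.0592).

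Birc3 stood in T cells at 1.06, 2.48 and 2.29 UMIs per 10000 in sham rats, 1.86, 10.5 and 1.71 in placebo rats and 4.16, 3.15 and 3.42 in PL8177 rats, and was lower than in enterocytes in 8 of 9 rats. The exception was placebo rat GR23, whose T cell nuclei hold mostly enterocyte markers. The difference was -1.24 on the log2 scale (SE 0.302, adjusted p = 0.0028) and -1.67 without GR23, and it passed the test in every alternative and with any 1 rat left out.

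Tnip1 stood in T cells at 1.40, 0 and 0.763 UMIs per 10000 in sham rats, 1.30, 2.70 and 1.19 in placebo rats and 2.49, 1.66 and 0.977 in PL8177 rats, and was lower than in enterocytes in 7 of 9 rats. GR23 and PL8177 rat GR41 were the exceptions. The 0 in sham rat GR13 was read from 8070 UMIs and allows up to 3.72 per 10000. The difference was -0.97 (SE 0.312, adjusted p = 0.0191), and -1.32 without GR23. It lost its call without GR24 (-0.88, adjusted p = 0.0602), GR43 (-0.93, adjusted p = 0.05005) or GR44 (-0.87, adjusted p = 0.05002), and in nuclei thinned to 300 UMIs it was -0.27 (adjusted p = 0.723).

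The remaining 4 genes tested, Relb (0.22), Nfkbia (0.02), Nfkbiz (0.01) and Bcl3 (-0.29), did not pass the test between cell types, with SEs of 0.265 to 0.373. Without GR23 they stood at 0.0580, -0.0157, -0.21 and -0.52, and none was called. Nfkb2, Rela and Tnfaip3 had too few UMIs in T cells (14, 25 and 29 in all) to be tested. T cell nuclei were also divided by their markers into 229 with at least 1 T cell marker UMI and no more of enterocyte markers, and 789 others, 661 of which came from GR23. Pooled over nuclei, with no test, the level of Nfkb1 was 3.92 UMIs per 10000 in the first, 1.27 in the others and 0.965 in enterocytes. Birc3 stood at 1.84, 8.84 and 5.36, and Tnip1 at 1.37, 2.44 and 2.91. Tnfaip3 stood at 0.591, 0.104 and 0.0948, on 19, 10 and 155 UMIs. These pools were not weighted by rat. Of the 229 nuclei 58 came from sham rat GR12 and 59 from placebo rat GR24. All T cell nuclei of GR12 held 234958 UMIs and those of GR24 75832, beside 321292 in the 229. GR12 also held 88 of the 248 Nfkb1 and 13 of the 29 Tnfaip3 UMIs in T cells. In T cell nuclei outside GR23 the enterocyte markers still made up 21.7 to 84.1 of 10000 UMIs, against 161 to 398 in enterocytes, and their part in the T cell levels was not tested. With the 229 nuclei alone, the differences from enterocytes were 1.55 for Nfkb1, -1.69 for Birc3 and -1.40 for Tnip1, each called.

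**Figure D4:**
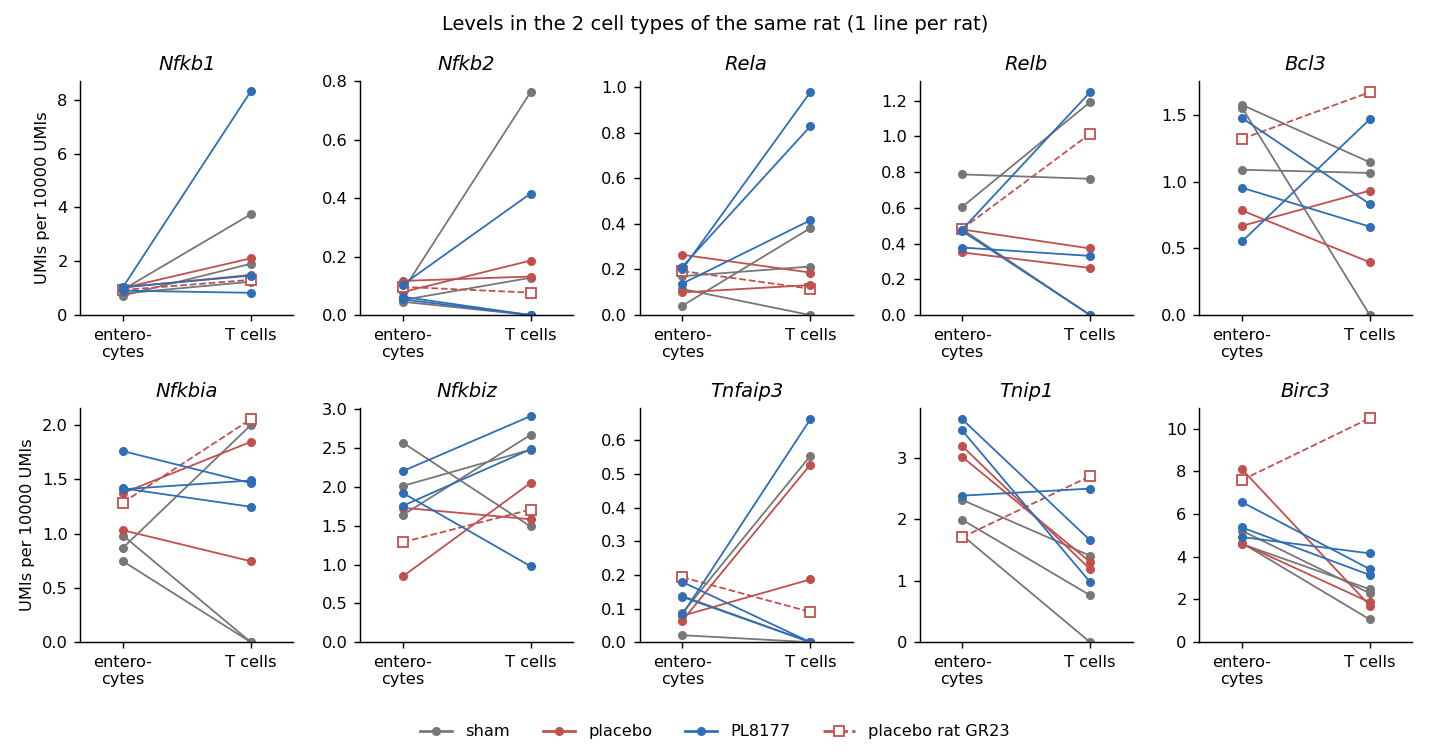
Level of each of the 10 genes in UMIs per 10000 UMIs (y axis, from 0) in enterocyte and T cell nuclei (x axis), with 1 line per rat coloured by treatment and placebo rat GR23 dashed with open squares. The Nfkb1 line goes up towards T cells in 8 of 9 rats and the Birc3 line down in 8 of 9, GR23 being the exception for Birc3 (7.59 to 10.5). The T cell points of Nfkb1 rest on 1 UMI in GR13 and 3 UMIs in GR44.

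Of the wider list 42 genes were tested between the cell types, of which 7 were higher and 7 lower in T cells. Over all genes tested 13.3% were higher and 20.7% lower. The median of the list was -0.08, beside -0.08 over all genes tested. Without GR23 7 were higher and 14 lower of 41 tested, beside 1188 higher and 1592 lower of all 5129 genes tested. The median was then -0.27, beside -0.10 over all genes. With the 229 T cell marker nuclei 6 were higher and 12 lower of 36, beside 731 higher and 1481 lower of all 4245 genes tested. The median there was -0.31, beside -0.29 over all genes. Higher in T cells were Rel, the gene of the lymphoid subunit c-Rel (2.41, SE 0.354), Tnfaip8 (2.44), the TNF receptor gene Tnfrsf1b (2.19), the adaptor gene Traf3 (1.44), Otulin, whose product cuts linear ubiquitin chains (1.84), and the kinase and kinase-adaptor genes Ikbke (1.08) and Tab2 (0.96). Rel had a median of 0.763 UMIs per 10000 in T cells and 0.129 in enterocytes, and was higher in T cells in 9 of 9 rats. Lower were the epithelial cytokine genes Il18 (-1.48) and Il1a (-1.14), the targets Sdc4 (-1.20), Bcl2l1 (-0.75) and Pigr (-0.74), the mRNA decay factor Zfp36 (-0.98) and the ubiquitin ligase gene Traf6 (-1.18). Of these 14 genes 6 (Rel, Tnfaip8, Tnfrsf1b, Traf3, Otulin and Sdc4) kept their call in every alternative in which they were tested. The calls of Zfp36, Ikbke, Il1a, Pigr, Traf6 and Bcl2l1 were each lost when any of 6 to 8 single rats was left out.

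**Figure D5:**
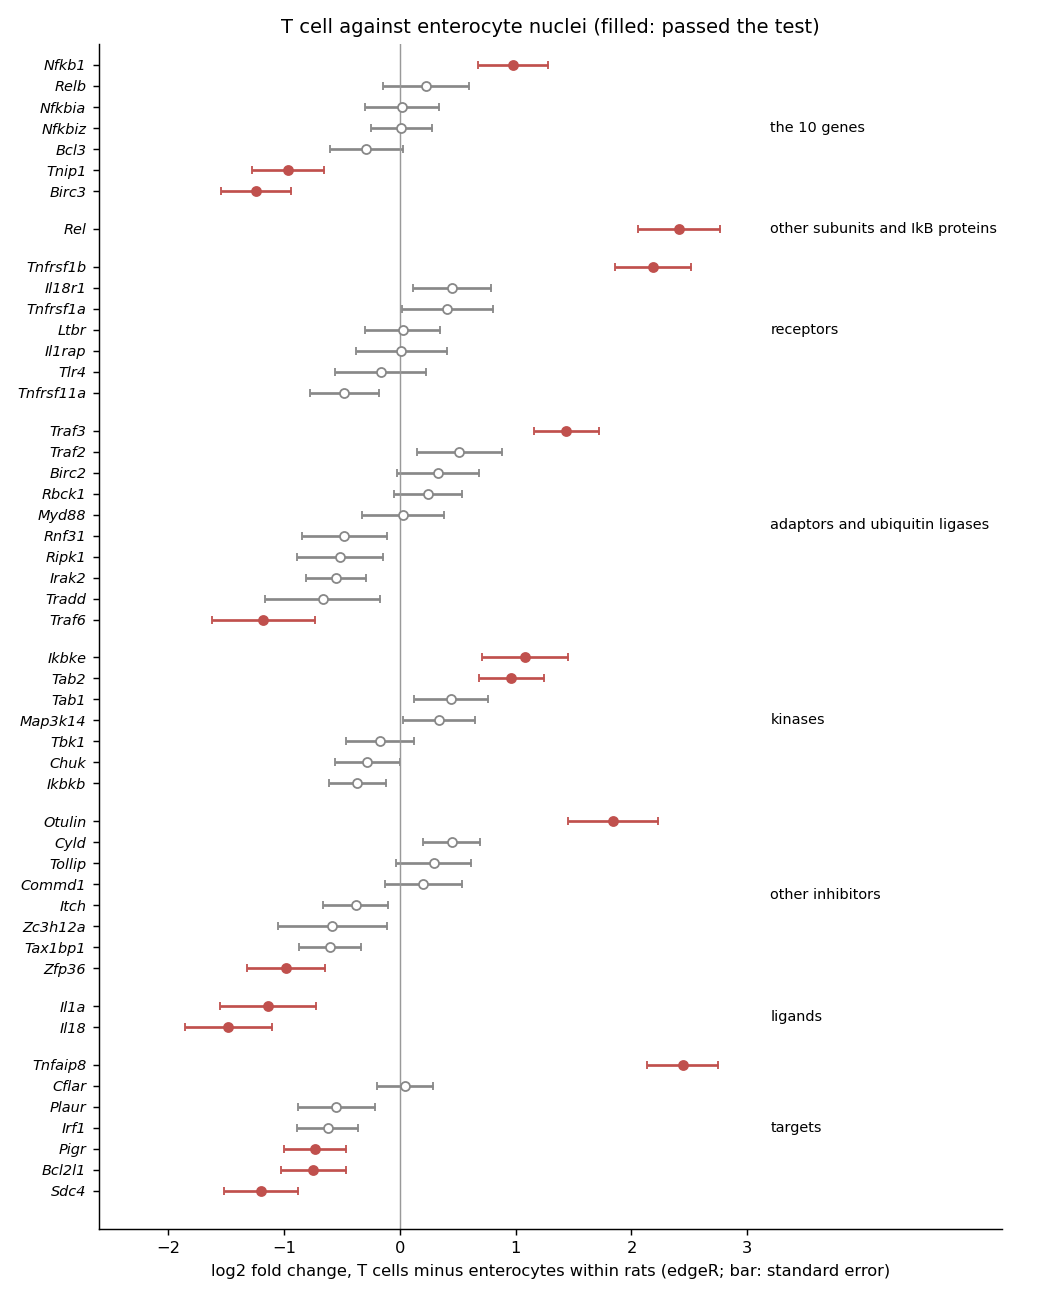
Log2 fold change between T cells and enterocytes of the same rats (x axis, with the SE as a bar) for the 7 of the 10 genes and the 42 genes of the wider list that were tested (y axis, grouped by role). Filled red points passed the test: Rel (2.41), Tnfaip8 (2.44) and Tnfrsf1b (2.19) lie farthest to the right and Il18 (-1.48), Birc3 (-1.24) and Sdc4 (-1.20) farthest to the left.

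Within T cells, the treatments could be compared for 3 of the 10 genes (Nfkb1, Birc3 and Nfkbiz), since the others had too few UMIs. None was called, as were 0% of all 1828 genes tested in each comparison (edgeR, with the threshold on the log2 change at 1.5). Unadjusted p-values below 0.05 numbered 90 from sham to placebo, 18 from placebo to PL8177 and 22 from sham to PL8177. DESeq2, which tested 14039 genes, called 0, with 183, 54 and 41 such values. Without GR23 they numbered 35, 63 and 67 of 1390 genes tested by edgeR, so that the order of the comparisons turned round. Birc3 had the only one among the 3, from sham to placebo (1.91, SE 0.812, unadjusted p = 0.0342, adjusted p = 0.919), and it was 0.31 without GR23, which held 817 of the 840 Birc3 UMIs of placebo T cells. From placebo to PL8177 Birc3 was -0.79 with and 0.93 without that rat, and from sham to PL8177 it was 1.12 with (unadjusted p = 0.211) and 1.25 without it (unadjusted p = 0.0291, adjusted p = 0.921). Nfkb1 was 0.88 from placebo to PL8177 (SE 0.740) and -0.78 without GR41. Nfkbiz stood at 1.49, 2.48 and 2.67 UMIs per 10000 in sham rats, 2.05, 1.71 and 1.58 in placebo rats and 2.91, 2.48 and 0.977 in PL8177 rats, and its 3 fitted changes lay between 0.01 and 0.12.

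Nfkbia, which was too sparse in T cells to be tested there, was at 2.0 UMIs per 10000 in sham rat GR12 and at 0 in GR13 and GR15, where 0 allows up to 3.72 and 1.14. Placebo rats stood at 0.746, 2.05 and 1.85 and PL8177 rats at 1.25, 1.49 and 1.47, on 3 to 160 UMIs. Of the wider list 12 genes were tested in T cells and 0 were called or had an unadjusted p below 0.05.

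Whether a treatment moved the 10 genes differently in T cells and in enterocytes was tested by an interaction term, with a term for each rat in the fit. Of the 9 genes that could be tested none was called and none had an unadjusted p below 0.05, for sham to placebo or for placebo to PL8177. Of all 8013 genes 0% were called in either (edgeR), with 550 and 337 unadjusted p-values below 0.05, and DESeq2 called 0. The median difference of the 9 genes was 0.62 and -0.69, beside 0.29 and -0.28 over all genes tested. Without GR23 10 genes could be tested and their medians were -0.36 and 0.03, beside 0.05 and -0.12, and with the T cell marker nuclei they were -0.36 and -0.31, beside -0.08 and -0.40. The first median thus turned its sign in both cases and the second without GR23.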

How the data were processed

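Nuclei of flash-frozen rat colon were sequenced with the 10x Genomics 3′ kit. The authors counted UMIs with Cell Ranger 6.0.1 on Rnor 6.0, introns included, cleaned them of empty droplets and artifacts with CellBender, set minima of 3 cells per gene and 200 genes per nucleus and a maximum of 5% mitochondrial reads, and named cell types from clusters in Seurat 4.0.3. For each treatment and both cell types the authors deposited a table of raw UMI counts (6 in all), not normalized for depth. Placebo T cells end within a gene after 15108 of 17388 genes, so its 1 incomplete line was left out and all levels and T cell fits use 15108 genes, the enterocyte fits 17388. The tag opening each nucleus name was read as the rat. It gave 3 tags per treatment, the number of rats in the paper, but the labels do not list rats, so every n rests on this reading.

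The nuclei of a rat and cell type were added up and the sums fitted with edgeR 4.0.16 (R 4.3.3, TMM, filterByExpr, quasi-likelihood test, Benjamini-Hochberg adjustment over all genes tested, the 3 treatments in 1 fit). DESeq2 1.42.0, another scaling (RLE), no filter, nuclei with at least 500 genes, nuclei thinned to 300 UMIs, doublets left out, T cell marker nuclei, no block for the rat and each rat left out were alternatives. The thresholds on the log2 change are those of the paper in enterocytes (0.5) and T cells (1.5), and 0.5 was also set between cell types. The fits were tested on simulated data with changes of 3 on the log2 scale. The changes fitted for the NF-kB genes were smaller, so this does not show whether changes of their size would be found. Thinning left out 275, 125 and 238 enterocyte and 12, 44 and 7 T cell nuclei of sham, placebo and PL8177 rats. Scrublet (scanpy 1.11.5) called 78 of 9800 nuclei (0.796%) doublets, 8 of them T cell nuclei, which were kept in the values reported. An upper limit for 0 is 3 UMIs of the total and covers counting error only.

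The 10 genes, the list of 87 pathway genes and the tests were chosen with earlier results of these data known. Pathway genes are named where they were called (at most 20 per comparison) or had 1 of the 3 smallest p-values per direction, and the gene most alike by Pearson r over 9 enterocyte sums. Marker lists from general knowledge served as checks. Besides those of T cells and enterocytes, the summed levels in UMIs per 10000 over all rats reached at most 0.200 in enterocytes and 3.36 in T cells for B cells, 1.60 and 6.86 for macrophages or dendritic cells, 0.0322 and 0.0426 for neutrophils, 3.13 and 9.69 for goblet, 0.418 and 1.95 for tuft and 0.124 and 0.559 for enteroendocrine cells, 2.67 and 2.85 for smooth muscle or fibroblasts and 0.0773 and 1.25 for endothelium. Nuclei of other cell types were not analysed here. Sums, levels and figures were made in Python 3.11.15 (pandas 2.3.3, numpy 2.4.6, matplotlib 3.10.9).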

Additional observations from a re-analysis of the deposited data

How the results depend on the processing

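None of the 10 genes was called in a comparison of treatments, in either cell type, or in an interaction under any alternative run. Between T cells and enterocytes 3 were called, 3 under DESeq2, RLE scaling, the filters on nuclei and doublets, T cell marker nuclei and without the block for the rat, 2 with no filter on low counts, 1 (Birc3) in nuclei thinned to 300 UMIs, and 2 or 3 with 1 rat left out. Over all genes the calls between cell types numbered 1769, against 2780 without GR23 and 1160 without GR12. They numbered 502 in thinned nuclei, 3881 with no filter, 3298 under DESeq2 and 2212 in marker nuclei. Thinning tested fewer genes (2799), and both DESeq2 and the absence of a filter tested more (14987). Against 0 calls in each comparison of treatments, no filter gave 51, 8 and 10 in enterocytes and 33, 4 and 0 in T cells (sham to placebo, placebo to PL8177, sham to PL8177), thinning gave 1 in enterocytes from sham to placebo, and leaving out 1 rat gave at most 8 in enterocytes (sham to placebo, without GR44), 1 in T cells (sham to PL8177, without GR23) and 3 in an interaction (sham to placebo, without GR23 or GR24). RLE scaling moved the median interaction over all genes from 0.29 to 0.09 (sham to placebo) and from -0.28 to -0.04 (placebo to PL8177), DESeq2 to -0.16 and 0.20, and leaving out GR23 to 0.05 and -0.12. The medians of the NF-kB genes in these interactions were 0.36 and -0.44 under RLE scaling and 0.29 and -0.25 under DESeq2, against 0.62 and -0.69, and with 1 rat left out they ran from -0.36 (GR23) to 1.27 (GR12) and from -1.19 (GR24) to 0.03 (GR23). In enterocytes the median of the 10 genes from sham to placebo (0.18) ran from 0.06 (without GR15) to 0.27 (without GR13), and that from placebo to PL8177 (0.26) from 0.17 (without GR23) to 0.32 (without GR22). Thinning, where 39 in place of 57 genes were tested, moved the medians of the wider list there from -0.17, 0.13 and 0.00 to -0.30, 0.21 and -0.10. T cell treatment changes of the 10 genes could not be fitted in thinned or marker nuclei, where no gene of them passed the filter.

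No fold change that turned direction was called, and the cause was not tested. From sham to placebo in enterocytes Tnfaip3 (-0.01) was 0.0585 under DESeq2, 0.0171 with no filter, 0.22 in nuclei with at least 500 genes and 0.0725 without doublets. Thinning gave -0.17 for Birc3 in that comparison and -0.11 for Nfkb1, -0.0499 for Relb and 0.19 for Birc3 from placebo to PL8177, and 0.20 for Bcl3 between cell types. Nfkbiz in T cells was -0.16, -0.0288 and -0.19 in nuclei with at least 500 genes (sham to placebo, placebo to PL8177, sham to PL8177) and -0.25 from placebo to PL8177 with no filter. Between cell types Nfkbia was -0.0742 under DESeq2, -0.0051 under RLE scaling, -0.56 with no filter and -0.0454 in marker nuclei, Nfkbiz was -0.0402 under DESeq2, -0.53 with no filter and -0.0204 in nuclei with at least 500 genes, and Relb was -0.28 with no filter.

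With 1 rat left out, values that changed sign ranged in enterocytes from -0.0200 to 0.18 (Nfkb1), -0.10 to 1.09 (Rela) and -0.36 to 0.31 (Tnfaip3) from sham to placebo, from -0.23 to 0.68 (Rela), -0.03465 to 0.61 (Bcl3) and -0.31 to 0.0729 (Birc3) from placebo to PL8177, and from -0.26 to 0.0565 (Nfkbiz) from sham to PL8177. In T cells they ranged from -0.33 to 0.31 (Nfkbiz) from sham to placebo, from -0.78 to 1.41 (Nfkb1), -0.15 to 0.36 (Nfkbiz) and -1.20 to 0.93 (Birc3) from placebo to PL8177, and from -1.26 to 0.86 (Nfkb1) and -0.18 to 0.40 (Nfkbiz) from sham to PL8177. Between cell types they ranged from -0.22 to 0.13 (Nfkbia) and -0.21 to 0.17 (Nfkbiz). No paired analysis was possible between treatments because their rats carry no shared numbers. T cell depth, 8070 UMIs at the lowest, limits what can be seen there for 7 of the 10 genes.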
